A study of Mus musculus with 6 samples.

Results

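The mitochondrial ribosomal protein genes were taken as the features whose Ensembl identifier belongs, in GENCODE M21 on GRCm38, to a protein-coding gene with a symbol that starts with Mrpl (large subunit) or Mrps (small subunit). They were 78 of the 55426 features of the table, 49 Mrpl and 29 Mrps genes, and all 78 were among the 16207 genes that passed the filter on low counts. RNA was sequenced from primary mouse pancreatic stellate cells (PSCs, fibroblast precursors of the pancreas) of the C57BL/6 strain, kept for 48 h at 21% O2 (normoxia, n = 3 samples) or at 1% O2 (hypoxia, n = 3 samples). In every sample the PSCs had been cocultured with mT3, a mouse pancreatic ductal adenocarcinoma cell line grown as organoids in the lower compartment of a transwell plate, so there was no group without tumor organoids. The PSCs came from wild-type mice of either sex, 8 to 12 weeks of age, and were used as low-passage lines. The labels do not say which samples came from separate lines or cultures, so p-values here measure the spread between these samples, which may be technical. The question put to these genes was how the parts of the mitochondrial translation machine differed between the 2 oxygen levels, and whether the large subunit differed from the small one.

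The mitochondrial ribosome, or mitoribosome, translates the few proteins encoded in mitochondrial DNA, which are core subunits of the respiratory chain and of ATP synthase. Its rRNAs are transcribed inside the organelle, whereas its proteins are encoded in the nucleus, made on cytosolic ribosomes and imported. Many of them have counterparts in the bacterial ribosome, and others have none.

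Library totals were between 24749601 and 31925054 counts, and the lowest count of any member in any sample was 177. The oxygen labels were checked with genes known to respond to low oxygen, and 10 of 10 were called higher at 1% O2, such as the glucose transporter Slc2a1 with a log2 fold change of 1.68 (SE 0.07). All 12 fibroblast markers passed the filter, with 2 called lower and 2 higher and log2 fold changes from -2.17 to 0.99. Of 6 endothelial markers 5 were tested, 1 was called lower and 2 higher by edgeR, and 0 lower and 2 higher by DESeq2. Their summed level was 12.5 to 17.9 counts per 1000000 (CPM) in normoxia and 19.9 to 27.9 CPM in hypoxia. Of 9 epithelial markers 3 were tested. Epcam and Krt8 were each at 0 in 5 of the 6 samples, but Krt19 rose from 0.715 to 22.1 CPM, and the epithelial sum was 3.23 to 5.396 CPM in normoxia and 24.98 to 29.04 CPM in hypoxia. Proliferation genes were lower at 1% O2, with 14 of 16 called and a summed level of 457 to 547 CPM in normoxia and 174 to 194 CPM in hypoxia. Of 12 leukocyte markers 10 were tested and 6 were called lower (7 by DESeq2). Their summed level was 921 to 1635 CPM in normoxia and 472 to 838 CPM in hypoxia, and the T cell marker Cd3e was at 0 in every sample. The part of these shifts in the values below was not tested. In bulk RNA, fewer cells of a type and less RNA per cell cannot be told apart.

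Most mitoribosomal protein genes were lower at 1% O2, by small amounts. A gene is called here when it differs by more than 1.5-fold at an adjusted p under 0.05 (edgeR's quasi-likelihood test with Benjamini-Hochberg adjustment over all genes tested). By that rule 11 of 78 members (14.1%) fell, 0 rose and 67 were not called, and DESeq2 gave the same 11 and 0, against 15.3% of all tested genes called lower and 18.9% called higher. The share called lower was therefore close to that of all genes. Without the fold limit the picture differed, since 51 members were lower and 5 higher at an adjusted p under 0.05, where 31.0% of all tested genes were lower and 31.8% higher. At an unadjusted p under 0.05 the counts were 54 and 5, against 33.1% and 33.4% of all tested genes. With offsets that remove each sample's trend with exonic gene length, 41 members were lower and 5 higher at an adjusted p under 0.05. The share of all tested genes with these offsets at that threshold is not given here. All 3 hypoxic samples lay below all 3 normoxic samples in 52 members and above them in 6, against 34.0% and 34.9% of all tested genes. The log2 fold change was below 0 in 68 of 78 members, against 50.3% of all tested genes. Its median was -0.32, a 1.25-fold lower level, with values from -1.36 to 0.35, while the median of all tested genes was -0.00.

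**Figure D1:**
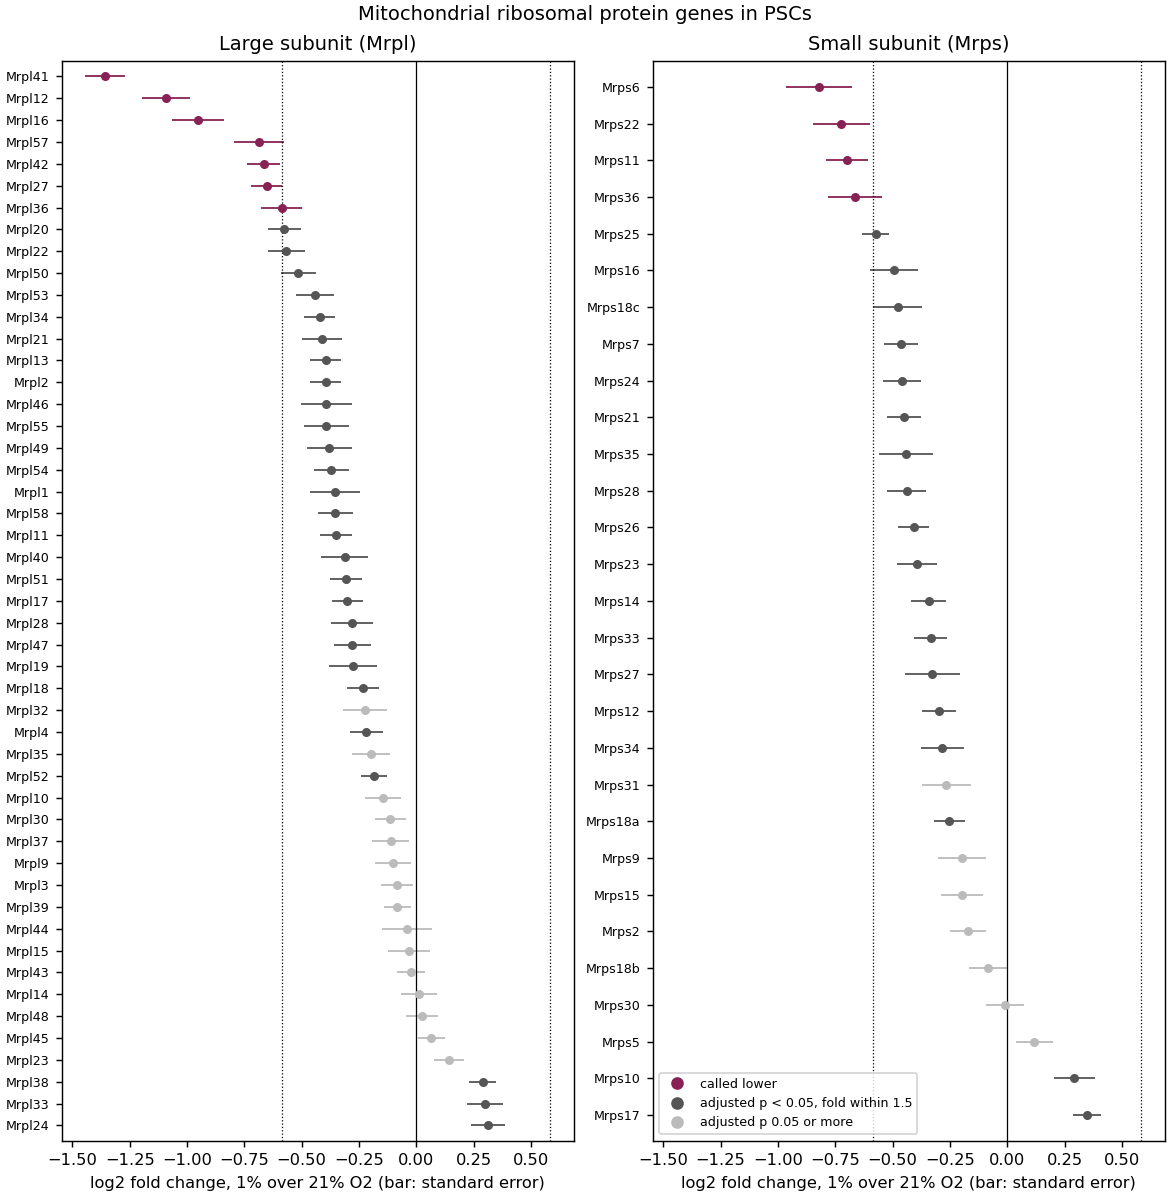
Log2 fold change at 1% over 21% O2 (x axis) of each of the 49 large subunit and 29 small subunit genes, with bars of 1 standard error (n = 3 samples per group). Dotted lines mark a 1.5-fold difference. The 11 members called lower lie at the top of the panels, 5 members lie above 0 at an adjusted p under 0.05, and most of the rest lie between 0 and the lower dotted line.

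Summed over the members, the level was 2000 CPM, 2218 CPM and 1951 CPM in normoxic replicates 1, 2 and 3, and 1708 CPM, 1722 CPM and 1692 CPM in the hypoxic replicates. The groups did not overlap, and the normoxic samples were farther apart than the hypoxic ones. Normoxia replicate 2 held the highest value of the 6 samples in 63 of the 78 members. It was also the sample with the highest summed level of leukocyte markers (1635 CPM) and of proliferation genes (547 CPM). The same held for respiratory complex I genes (2080 CPM) and mitochondrial DNA transcripts (14074 CPM). What sets normoxia replicate 2 apart was not tested. Without it the median log2 fold change of the members was -0.26, with 10 called lower.

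The medians of the large and the small subunit lay close together. Of the large subunit genes 7 of 49 (14.3%) were called lower, with a median log2 fold change of -0.30, and of the small subunit genes 4 of 29 (13.8%), with a median of -0.34. Both shares were near the 15.3% of all tested genes. The summed large subunit level was 1315 ± 84.8 CPM (SD, n = 3) in normoxia and 1110 ± 14.9 CPM (SD, n = 3) in hypoxia. The summed small subunit level was 741 ± 57.1 CPM (SD, n = 3) in normoxia and 598 ± 1.98 CPM (SD, n = 3) in hypoxia.

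The ratio of the summed levels, large over small, was slightly higher in hypoxia. It was 1.78, 1.75 and 1.80 in normoxic replicates 1, 2 and 3 and 1.87, 1.87 and 1.83 in the hypoxic replicates. In this ratio of sums the groups did not overlap. The means were 1.78 ± 0.022 (SD, n = 3) against 1.86 ± 0.025 (SD, n = 3), a ratio 1.05 times higher in hypoxia. By medians of log2 level, where each gene counts alike, the gap between the subunits did overlap between the groups. Set against the normoxic mean, normoxia replicate 3 lay at -0.058 (large) and -0.099 (small). Hypoxia replicate 3 lay at -0.336 (large) and -0.375 (small). The median log2 fold change of the large subunit was 0.04 above that of the small one, where the difference of medians varied between replicates with an SD of 0.02. This difference was 0.076 without normoxia replicate 3, 0.078 without hypoxia replicate 1, 0.096 without hypoxia replicate 2 and 0.088 with offsets for GC content. Symbols do not follow the structure in every case. Mrps30 and Mrps18a encode proteins that sit in the large subunit, and Mrps36 encodes a protein now counted to the 2-oxoglutarate dehydrogenase complex. With the first pair moved and Mrps36 left out, the medians were -0.28 over 51 large subunit genes and -0.37 over 26 small subunit genes, and the ratio of summed levels was 2.005 ± 0.030 (SD, n = 3) in normoxia and 2.11 ± 0.025 (SD, n = 3) in hypoxia.

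**Figure D2:**
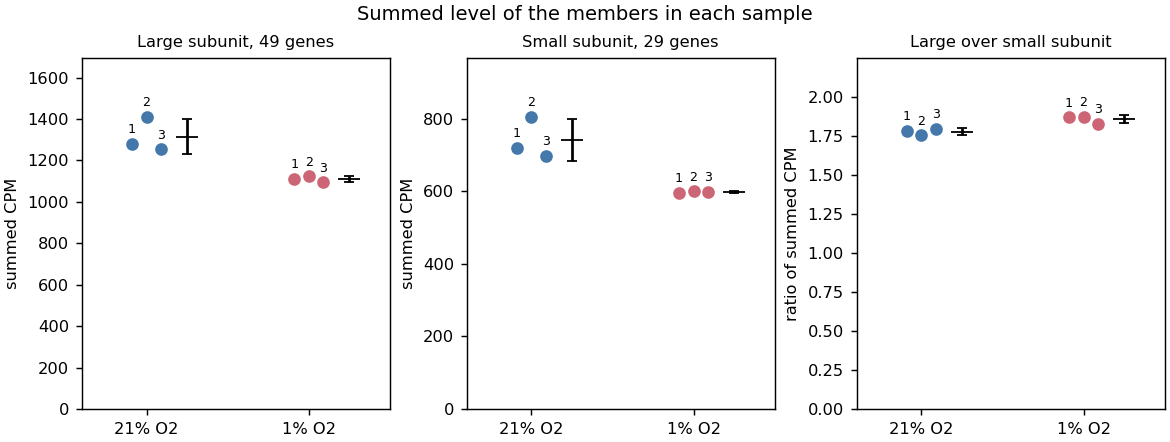
Summed CPM of the large subunit genes, of the small subunit genes, and their ratio (y axes, from 0) in each sample at 21% and 1% O2, with the replicate number at each point and the mean ± SD of 3 samples beside them. The hypoxic sums lie below and close together, and the hypoxic ratios of 1.83 to 1.87 lie above the normoxic ratios of 1.75 to 1.80.

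Mrpl41 and Mrpl12 were the members that fell by more than 2-fold. Mrpl41 encodes a large subunit protein without a bacterial counterpart that has also been described as a partner of BCL2. It was at 20.4 CPM, 23.2 CPM and 20.6 CPM in normoxia and at 8.13 CPM, 8.68 CPM and 8.17 CPM in hypoxia. The hypoxic values were far below the normoxic ones and nearly identical to each other, and the log2 fold change was -1.36 (SE 0.09, adjusted p = 2.04e-06 by edgeR's quasi-likelihood test with Benjamini-Hochberg adjustment). Mrpl12 encodes the counterpart of bacterial L7/L12, the flexible stalk protein to which translation factors bind, and has also been described to bind the mitochondrial RNA polymerase. It was at 45.8 CPM, 56.0 CPM and 41.8 CPM in normoxia and at 21.3 CPM, 23.7 CPM and 22.3 CPM in hypoxia, a 2.13-fold lower mean level. Its normoxic samples were spread more widely, but the lowest of them lay well above the highest hypoxic one. The log2 fold change was -1.09 (SE 0.11), but under 2-fold with offsets for gene length (-0.987) and without normoxia replicate 2 (-0.971).

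Mrpl16, the third in size, encodes a relative of bacterial L16, which lies close to the tRNA sites. Its level was 18.2 CPM, 21.4 CPM and 16.3 CPM in normoxia and 10.1 CPM, 9.03 CPM and 9.81 CPM in hypoxia, with a log2 fold change of -0.95 (SE 0.11). The lowest normoxic sample was above every hypoxic one. The same held for all 11 members called lower.

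In the small subunit, Mrps6, Mrps22, Mrps11 and Mrps36 were called lower. Mrps6, the relative of bacterial S6, was at 55.0 CPM, 57.3 CPM and 45.6 CPM in normoxia and at 36.6 CPM, 23.8 CPM and 29.3 CPM in hypoxia. These were the widest hypoxic values among the members called, and the log2 fold change was -0.82 (SE 0.14). Mrps6 shares 159 exonic bases on the same strand with Slc5a3, a myo-inositol transporter gene at 72.5 CPM in normoxia and 50.7 CPM in hypoxia (log2 fold change -0.52, adjusted p = 0.0576 by edgeR's quasi-likelihood test with Benjamini-Hochberg adjustment), so the counts of these genes may be split between them. Mrps22, which has no bacterial counterpart and is mutated in a human mitochondrial disease, was at 12.1 CPM, 13.0 CPM and 9.94 CPM in normoxia and at 6.95 CPM, 6.64 CPM and 7.61 CPM in hypoxia (log2 fold change -0.72, SE 0.12).

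Mrps11, the relative of bacterial S11, was at 18.4 CPM, 21.7 CPM and 20.1 CPM in normoxia and at 12.3 CPM, 13.3 CPM and 11.5 CPM in hypoxia (log2 fold change -0.70, SE 0.09). It overlaps the large subunit gene Mrpl46 by 173 exonic bases on the opposite strand, and Mrpl46 itself had a mean of 12.7 CPM in normoxia and 9.69 CPM in hypoxia without being called (log2 fold change -0.39). Mrps36 was at 11.8 CPM, 15.4 CPM and 15.3 CPM in normoxia and at 8.60 CPM, 9.03 CPM and 9.08 CPM in hypoxia (log2 fold change -0.67, SE 0.12), but was not called with offsets for gene length (-0.52). In each of these genes the groups did not overlap, and the lowest normoxic value was above the highest hypoxic one.

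The other 4 genes called lower belong to the large subunit. Mrpl57 encodes a small protein without a bacterial counterpart and had a mean of 22.2 ± 2.73 CPM (SD, n = 3) in normoxia and 13.8 ± 1.37 CPM (SD, n = 3) in hypoxia. Mrpl42, also without a bacterial counterpart, was at 27.1 ± 1.87 CPM (SD, n = 3) in normoxia and at 17.1 ± 0.298 CPM (SD, n = 3) in hypoxia. Mrpl27, whose bacterial relative reaches into the peptidyl transferase center, was at 30.3 ± 0.816 CPM (SD, n = 3) and 19.3 ± 1.15 CPM (SD, n = 3). The log2 fold changes of these genes ran from -0.69 to -0.65, and with offsets for gene length Mrpl27 was not called (-0.45). Mrpl36, the relative of the small bacterial protein L36, was the gene just inside the fold limit, with a log2 fold change of -0.59 (1.502-fold lower). It was not called with offsets for gene length (-0.42) or GC content (-0.55), with RLE factors, with a filter of 1 CPM in 3 samples, or without normoxia replicate 1 or 2 or hypoxia replicate 1 or 3. Just outside it lay Mrpl20 (-0.58, 1.490-fold lower), Mrps25 (-0.57) and Mrpl22 (-0.57), all with adjusted p under 0.05 and groups that did not overlap. Mrpl27, Mrpl42 and Mrpl36 were named after their values were seen, as were Mrpl20, Mrps25 and Mrpl22.

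**Figure D3:**
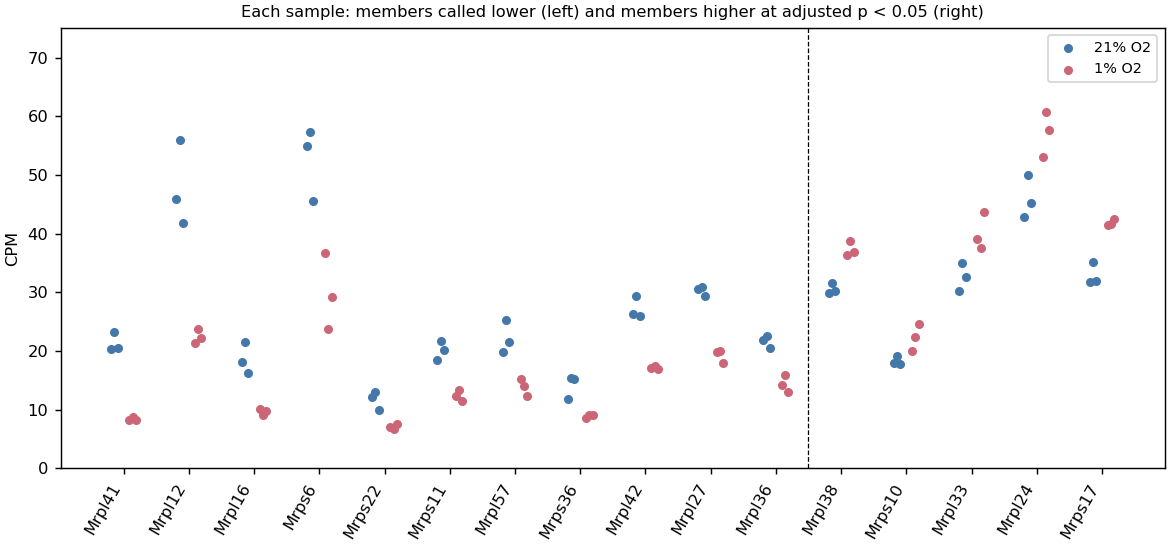
CPM (y axis, from 0) of the 11 members called lower, left of the dashed line, and of the 5 members higher at an adjusted p under 0.05, right of it. Each point is a sample at 21% or 1% O2, and the groups do not overlap in any of the 16 genes.

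In the other direction 5 members, chosen after their values were seen, were higher at an adjusted p under 0.05 (edgeR with Benjamini-Hochberg adjustment), all by less than 1.5-fold. Mrps17, the relative of bacterial S17, was at 31.7 CPM, 35.1 CPM and 32.0 CPM in normoxia and at 41.4 CPM, 41.7 CPM and 42.5 CPM in hypoxia, a log2 fold change of 0.35 (SE 0.06). Mrpl24, the relative of bacterial L24, was at 42.8 CPM, 49.99 CPM and 45.2 CPM in normoxia and at 53.1 CPM, 60.8 CPM and 57.6 CPM in hypoxia, a log2 fold change of 0.31 (SE 0.07). It overlaps Rrnad1 on the opposite strand over 594 exonic bases, a gene that rose from 13.4 to 31.1 CPM. The log2 fold changes of Mrpl33, Mrps10 and Mrpl38 were 0.30, 0.29 and 0.29. All 5 stayed above 0 with offsets for gene length or GC content and with library totals, though the adjusted p of Mrps10 (edgeR with Benjamini-Hochberg adjustment) was 0.0521 with the length offsets, 0.0506 without normoxia replicate 1, 0.0605 without normoxia replicate 3 and 0.0852 without hypoxia replicate 3. With the replicate block in DESeq2 it was 0.0848. Of these 5, Mrpl38 alone has no bacterial counterpart.

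The members nearest to no difference were Mrps30, Mrpl14, Mrpl43, Mrpl48 and Mrpl15, with log2 fold changes between -0.03 and 0.02. Mrpl43, a protein without a bacterial counterpart, was at 30.9 CPM, 31.3 CPM and 30.02 CPM in normoxia and at 30.5 CPM, 31.8 CPM and 28.5 CPM in hypoxia. In all 5 genes the groups overlapped. With offsets for gene length Mrpl14 had a log2 fold change of 0.22 and an adjusted p of 0.0478 (edgeR with Benjamini-Hochberg adjustment), so its place among these genes depends on the scaling.

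The 3 Mrps18 paralogs all descend from bacterial S18, and Mrps18c takes its place in the small subunit. Mrps18c was at 21.8 CPM, 23.4 CPM and 19.6 CPM in normoxia and at 13.4 CPM, 17.3 CPM and 15.8 CPM in hypoxia (log2 fold change -0.48, SE 0.11, adjusted p = 0.00384 by edgeR's quasi-likelihood test with Benjamini-Hochberg adjustment). With offsets for gene length its log2 fold change was -0.30, with an adjusted p of 0.0501 in the same test. Mrps18a, which encodes the large subunit paralog, went from 27.4 ± 1.42 CPM (SD, n = 3) to 22.998 ± 0.733 CPM (SD, n = 3), a log2 fold change of -0.25 (SE 0.07). Mrps18b was at 18.2 ± 1.63 CPM (SD, n = 3) in normoxia and 17.2 ± 0.776 CPM (SD, n = 3) in hypoxia, with overlapping groups and a log2 fold change of -0.08 (SE 0.09). None of the 3 passed the 1.5-fold limit, and the differences between the paralogs were not tested.

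Levels of different members were compared per kilobase of annotated exon. In normoxia the highest were Mrps21 with 49.2 CPM per kb, Mrpl34 with 37.3 CPM per kb and Mrps6 with 34.3 CPM per kb. The lowest were Mrps35 with 1.62 CPM per kb, Mrps10 with 2.26 CPM per kb and Mrpl1 with 2.29 CPM per kb. The exonic length includes every annotated exon, which lowers the value of genes with long rare isoforms, such as Mrps35 with 8631 bases. Ordered by this level and split into 3 equal groups of 26, the members had a median log2 fold change of -0.27 in the lowest group, -0.31 in the middle and -0.41 in the highest, with 3, 3 and 5 called lower, where 15.3% of all tested genes were. The groups also differed in exonic length, with medians of 5606.5, 2352.5 and 1275 bases, and with offsets for length the order of the medians turned, to -0.31, -0.25 and -0.21. Mrps21, of the bacterial S21 family, and Mrpl34, of the L34 family, had log2 fold changes of -0.45 and -0.42, which became -0.19 and -0.12 with the length offsets. Their adjusted p was then 0.0849 and 0.293 (edgeR with Benjamini-Hochberg adjustment). At the low end Mrps35 and Mrpl1 had log2 fold changes of -0.44 and -0.35, while that of Mrps10 was 0.29.

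The members were also split by whether their protein is the counterpart of a bacterial ribosomal protein at the same place in the ribosome. The 46 with such a counterpart had a median log2 fold change of -0.30, with 6 called lower (13.0%), and the 31 without had a median of -0.33, with 4 called lower (12.9%), against 15.3% of all tested genes. The 31 include Mrps18a and Mrps18b, whose sequences descend from S18 but which sit elsewhere, and Mrps36 was in neither group. Within the small subunit by structure the medians were -0.39 for 16 genes with a counterpart and -0.36 for 10 without, and -0.23 and -0.28 with offsets for gene length. Within the large subunit they were -0.28 for 30 genes with a counterpart and -0.30 for 21 without, and -0.24 and -0.20 with those offsets.

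The stretches of DNA before the starts of 6 members are shown because they include the 3 genes with the largest falls and members that hold letters recognised by NRF1 or by ETS factors, which are regulators known from genes of mitochondrial function. They were chosen after the values were seen. The sequences come from RefSeq on GRCm38.p6, are written 5′ to 3′ on the gene's strand, start 150 bases before the gene start and leave out bases inside an annotated exon. Capitals mark the NRF1 letters (GCATGCGC), the ETS letters (CCGGAAG) or the TATA letters (TATAAA), on either strand. In Mrpl9 the NRF1 letters match on both strands, and the matches overlap.
Mrpl41, chr2:24975099-24975248, minus strand: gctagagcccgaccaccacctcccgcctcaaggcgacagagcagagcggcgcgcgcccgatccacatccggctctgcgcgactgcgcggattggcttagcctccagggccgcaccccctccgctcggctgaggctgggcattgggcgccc
Mrpl12, chr11:120484487-120484612, plus strand: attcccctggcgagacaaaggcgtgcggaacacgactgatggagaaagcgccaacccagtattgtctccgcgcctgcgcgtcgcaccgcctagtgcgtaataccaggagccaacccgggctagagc
Mrpl16, chr19:11770265-11770390, plus strand: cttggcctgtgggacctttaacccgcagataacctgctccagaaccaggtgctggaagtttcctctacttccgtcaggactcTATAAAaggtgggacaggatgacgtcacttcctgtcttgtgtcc
Mrps22, chr9:98601680-98601829, minus strand: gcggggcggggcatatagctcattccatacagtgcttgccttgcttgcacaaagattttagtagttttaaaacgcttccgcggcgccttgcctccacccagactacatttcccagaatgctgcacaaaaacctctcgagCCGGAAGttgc
Mrpl22, chr11:58171514-58171660, plus strand: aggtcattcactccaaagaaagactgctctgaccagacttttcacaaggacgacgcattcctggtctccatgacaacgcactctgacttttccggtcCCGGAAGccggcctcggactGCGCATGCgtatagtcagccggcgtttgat
Mrpl9, chr3:94443186-94443317, plus strand: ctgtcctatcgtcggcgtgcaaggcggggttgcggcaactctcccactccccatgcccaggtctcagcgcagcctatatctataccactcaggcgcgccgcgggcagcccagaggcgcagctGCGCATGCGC

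Over all members, 75 RefSeq promoters (250 bases before to 50 after a start) were matched by symbol to 69 of the 78 genes. The ETS letters were in 26 of the 75 (34.7%), against 16.1% of the promoters of all tested genes and 8.86% of all promoters in the table. The YY1 letters (ATGGCGGC) were in 12 (16%), against 4.35% for tested genes. The NRF1 letters were in 8 (10.7%), against 4.80%. Of the 8, 7 belong to large subunit genes, as do 48 of the 75 promoters searched. The E-box letters CACGTG and the TATA letters were in 7 and 5 of the promoters, 9.33% and 6.67%, against 9.73% and 7.45% for tested genes. Both strands were searched. The median GC content was 58.7% in members and 60.3% in tested genes. Among the 11 members called lower, the NRF1 letters were in the promoter of 0, the ETS letters were in 3 and the YY1 letters in 2. The 8 members with the NRF1 letters had log2 fold changes from -0.57 (Mrpl22) to 0.30 (Mrpl33). A match of letters is a description, not a site, and the shares were not tested.

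Many members start back to back with another gene. Of the 78 members 18 (23.1%) have a protein-coding neighbor on the opposite strand whose start lies within 1000 bases, against 9.75% of the 13646 tested protein-coding genes. The log2 fold changes of these neighbors had a median of 0.02, with 2 called lower, 2 called higher and 14 not called. The neighbor of Mrpl57 is Ska3, a gene of chromosome segregation, 49 bases away. Ska3 fell from 3.27 to 1.10 CPM (log2 fold change -1.56). The neighbor of Mrpl51 is Ncapd2, a condensin gene, with a log2 fold change of -0.87, while Mrpl51 itself had -0.30. In the opposite direction lay Fau, which encodes a cytosolic ribosomal protein fused to a ubiquitin-like one and starts 59 bases from Mrpl49. Fau rose from 311 to 541 CPM (log2 fold change 0.80) while the log2 fold change of Mrpl49 was -0.38. Zfp661, the neighbor of Mrps5, was also called higher (0.71). Pnpla7, which starts 935 bases from Mrpl41, was at 22.1 CPM in normoxia and 19.8 CPM in hypoxia and was not called.

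**Figure D4:**
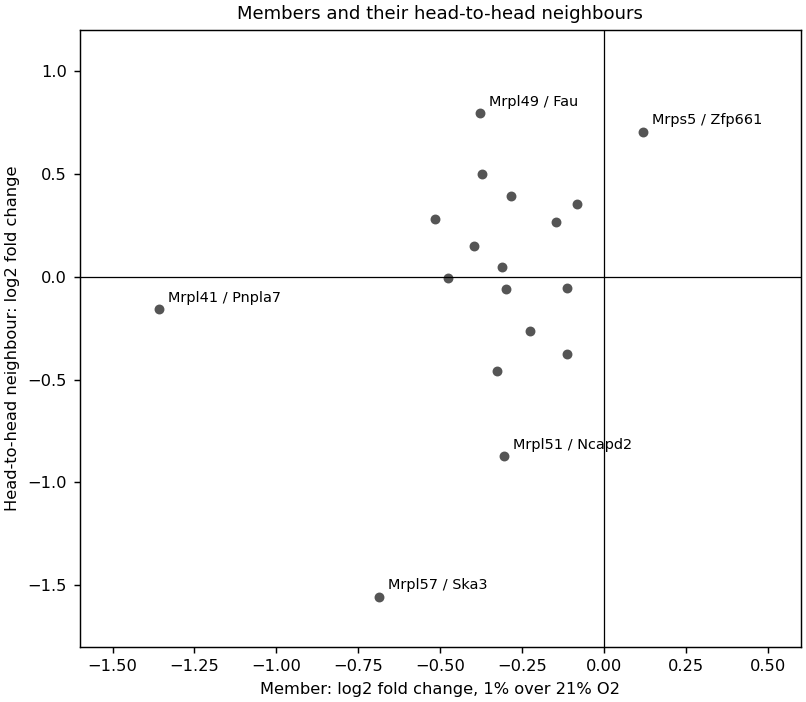
Log2 fold change at 1% over 21% O2 of the 18 members with a head-to-head neighbor (x axis) and of that neighbor (y axis), each point a pair of genes. The neighbors lie from -1.56 (Ska3) to 0.80 (Fau) and on both sides of 0, while 17 of the 18 members lie below 0.

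Other genes of mitochondrial translation were counted from lists, whose counts stand against 15.3% of all tested genes called lower and 18.9% called higher. Of 5 mitoribosomal proteins with symbols of another form, 0 were called by edgeR or by DESeq2, 3 were lower and 0 higher at an unadjusted p under 0.05 and the median log2 fold change was -0.22, with Chchd1 at -0.41, Aurkaip1 at -0.33, Dap3 at -0.22, Ptcd3 at -0.08 and Gadd45gip1 at 0.09. Of 18 translation factors and activators 1 fell and 1 rose (5.56% each), with a median of -0.30, and DESeq2 called 2 lower and 1 higher. Taco1, an activator of cytochrome c oxidase subunit 1 translation, fell from 8.35 to 5.27 CPM, and Metap1d, a mitochondrial methionine aminopeptidase, rose from 29.6 to 58.1 CPM. The elongation factors Tufm, Tsfm and Gfm1 had log2 fold changes of -0.51, -0.42 and -0.41 and were not called, while those of Gfm2 and Guf1 were 0.25 and 0.18, also not called.

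Of 26 mitoribosome assembly factors 3 fell and 3 rose (11.5% each), with a median of -0.05. Mpv17l2, an inner membrane protein that binds the large subunit, fell from 26.0 ± 2.20 CPM (SD, n = 3) to 11.8 ± 0.358 CPM (SD, n = 3), a log2 fold change of -1.14. Mettl15, a methyltransferase of the small subunit rRNA, had a log2 fold change of -1.05, and Mettl17, a small subunit assembly factor, rose by 0.95 on the log2 scale. Of 20 mitochondrial aminoacyl-tRNA synthetases and amidotransferase subunits 4 fell (20%) and 0 rose by edgeR and by DESeq2 (9 lower and 2 higher at an unadjusted p under 0.05), with a median of -0.15. Qrsl1, Lars2 and Gatb had the largest falls (-1.02, -0.91 and -0.63).

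The RNAs of mitochondrial DNA, which include the rRNAs of the mitoribosome, were lower at 1% O2. Of 15 such transcripts 14 (93.3%) were called lower by edgeR and 13 by DESeq2. Their median log2 fold change was -0.94, and -0.74 with offsets for gene length. The rRNA of the small subunit, mt-Rnr1, was at 161 CPM, 202 CPM and 176 CPM in normoxia and at 103 CPM, 85.1 CPM and 94.1 CPM in hypoxia (log2 fold change -0.94, SE 0.10). The rRNA of the large subunit, mt-Rnr2, was at 488 CPM, 687 CPM and 582 CPM in normoxia and at 250 CPM, 222 CPM and 318 CPM in hypoxia (-1.15, SE 0.15). The groups did not overlap in either rRNA. The libraries were selected for poly(A), which captures rRNA only in part. The largest fall was that of mt-Atp8 (-1.50), and mt-Co1 was the transcript not called by edgeR (-0.48). The difference between these transcripts and the members was not tested.

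Of 16 genes of mitochondrial transcription and its nuclear regulators 3 fell (18.8%) and 1 rose (6.25%). Ppargc1b, a coactivator of genes of mitochondrial function, fell from 5.68 ± 0.853 CPM (SD, n = 3) to 1.12 ± 0.295 CPM (SD, n = 3), a log2 fold change of -2.35. Its relative Ppargc1a fell from 5.81 to 2.61 CPM (-1.16). The DNA-binding factors whose letters were searched had log2 fold changes of 0.19 (Nrf1), -0.04 (Gabpa) and 0.30 (Yy1), none of them called. Tfam, which packages mitochondrial DNA, had 0.01. Of 15 genes used as signs of mitochondrial mass and import 3 fell (20%, Hspe1, Cs and Hspd1), 2 rose (13.3%, Vdac1 and Lonp1) and the median was -0.24.

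Beside 2 gene families with related roles, the members lay in between. The 76 cytosolic ribosomal protein genes under plain Rpl, Rplp and Rps symbols, a list without Fau (called higher) and without like-named paralogs, had a median log2 fold change of 0.05 with 0 called by edgeR or DESeq2, and 13 lower and 19 higher at an unadjusted p under 0.05, against 33.1% and 33.4% of all tested genes. Their summed level was 37571 ± 952 CPM (SD, n = 3) in normoxia and 38240 ± 1657 CPM (SD, n = 3) in hypoxia, so that the summed mitoribosomal level was 5.47 ± 0.263% (SD, n = 3) of it in normoxia and 4.47 ± 0.153% (SD, n = 3) in hypoxia. The 36 nuclear genes of respiratory complex I subunits had a median log2 fold change of -0.63, with 21 called lower (58.3%), 0 called higher by edgeR or DESeq2 (35 lower and 1 higher at an unadjusted p under 0.05) and groups that did not overlap, 35 lower and 1 higher, against 34.0% and 34.9% of all tested genes. Their sum was 1908 ± 149 CPM (SD, n = 3) in normoxia and 1291 ± 9.09 CPM (SD, n = 3) in hypoxia. With offsets for gene length the medians were 0.10 for the cytosolic ribosomal proteins, -0.49 for complex I and -0.25 for the members. The differences between families were not tested.

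**Figure D5:**
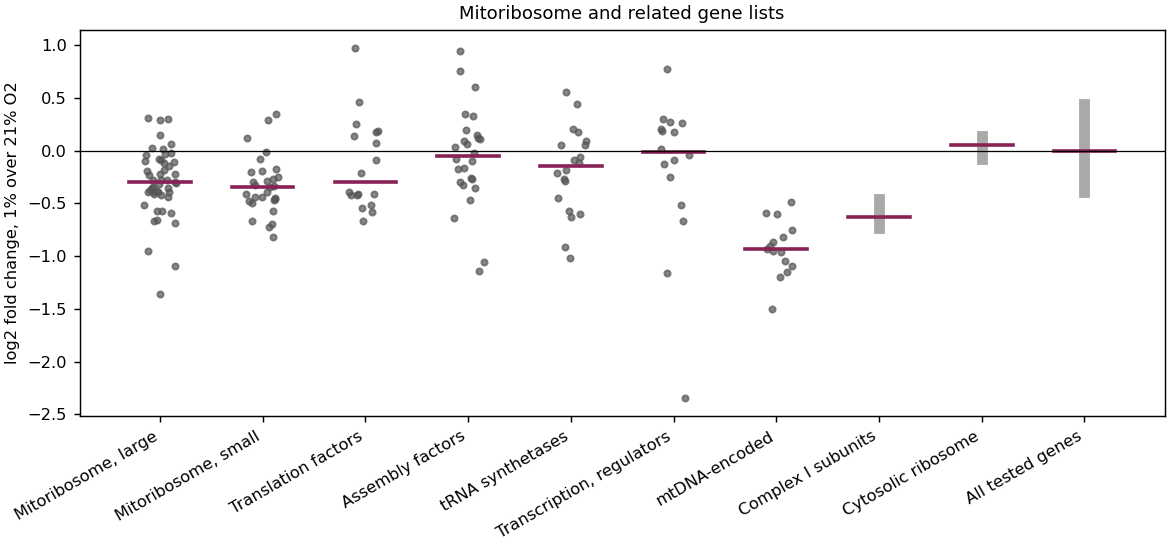
Log2 fold change at 1% over 21% O2 (y axis) of the members by subunit and of related gene lists. Points are genes, horizontal bars are medians, and grey bars without points run from the lower to the upper quartile. The medians are -0.30 and -0.34 for the members, -0.94 for mitochondrial DNA, -0.63 for complex I and 0.05 for the cytosolic ribosome.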

How the data were processed

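PSC RNA was measured in 3 normoxic and 3 hypoxic samples, grouped by the treatment in the labels. The authors prepared poly(A) libraries, trimmed adapters, mapped reads to GRCm38 with STAR (2.6.1b) and estimated reads per gene with RSEM (1.3.1), as the methods and the submitters' processing notes state. The authors deposited RSEM's expected counts without scaling between samples. All were whole, so rounding changed nothing. The annotation release and the strand setting of the counting are not given in the sources used here. Gene names came from GENCODE M21, which held 55240 of 55426 identifiers.

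Counts were fitted over all genes with edgeR 4.0.16 (limma 3.58.1, R 4.3.3), using filterByExpr, TMM factors, quasi-likelihood F tests and Benjamini-Hochberg correction over the 16207 genes tested. CPM are counts per 1000000 of the TMM-scaled library, and a standard error is the log2 fold change divided by the square root of F. On simulated data 180 of 200 changed genes were recovered, with 10 false calls. Recovery by size of difference is not given here, and recovery of differences as small as those of most members was not tested. DESeq2 1.42.0 was an alternative. Counting error alone gives a limit of 3 counts per library, and every member was above it. Replicates differed by more than sampling noise. Figures used matplotlib 3.10.9.

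Members and lists were chosen with earlier results of these data known. The named members were the 8 called with the largest falls, the 3 highest and 3 lowest per kb, the 5 nearest 0, the Mrps18 paralogs, Mrpl12, Mrps30 and Mrps36, and up to 3 called genes per other list. Names outside this rule in those lists were chosen after their values were seen. Of the members, 33 share exonic bases with another gene (8 on the same strand, 28 on the opposite), among them 5 of those called lower, and their counts are less certain.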

Additional observations from a re-analysis of the deposited data

How the results depend on the processing

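Of the counts and medians, most kept their direction and stayed close under other normalizations, filters, DESeq2 and each sample left out. Between 9 and 14 members were called lower under all settings that kept the 1.5-fold limit, and 0 were called higher. Of all tested genes 14.4% were called lower with length offsets, 15.3% with GC offsets and 15.9% with library totals. With DESeq2 it was 11.8% of 20874 genes. Without the fold limit 51 were lower and 5 higher (31 of the large and 20 of the small subunit lower). Of all tested genes 31.0% were lower and 31.8% higher by that rule. At a 2-fold limit in the main fit 2 were lower, 2 in the large and 0 in the small subunit, too few to compare the subunits. The share of all tested genes at the 2-fold limit is not given here. Leaving out each sample in turn gave 10 to 13 members called lower, with 10 or 11 of the 11 genes shared, and Mrpl36 was the gene lost. With offsets for gene length the large subunit median was -0.23, with 9 members called lower, 8 of them shared, and Mrps36, Mrpl27 and Mrpl36 dropped below 1.5-fold (log2 fold changes -0.52, -0.45 and -0.42). At an adjusted p under 0.05 alone, 41 members were then lower instead of 51. Among the named members Mrps21, Mrpl34, Mrps18c and Mrps10 missed that threshold and Mrpl14 passed it.

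The difference between the medians of the large and the small subunit, 0.04, also moved. It was 0.088 with offsets for GC content, 0.087 with subunits taken by structure, and 0.035 to 0.096 with each sample left out. The highest, 0.096, was without hypoxia replicate 2, and 0.076 and 0.078 were without normoxia replicate 3 and hypoxia replicate 1. Its sign held throughout, and the cause was not tested.

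The labels number the samples of each group 1 to 3. The deviations of a normoxic and a hypoxic sample from their group's mean correlated at 0.098, 0.110 and 0.028 for numbers 1, 2 and 3 over 16207 genes, each being the highest for its number, which is a hint from the data and not the design. With the number as a replicate block, 11 members were called lower by edgeR and by DESeq2. With 3 samples a group, differences well under 1.5-fold in the scarcer members are near the limit of what the spread allows.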
